A study of Mus musculus with 9 samples.

Results

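The replication-dependent histone genes were taken as every gene whose symbol in the GENCODE M21 annotation begins with Hist1h, Hist2h, Hist3h or Hist4h, which gave 70 of the 55450 genes in the count tables. There were 6 H1, 20 H2A, 19 H2B, 12 H3 and 13 H4 genes, and 3 of the 70 were annotated as pseudogenes. By symbol, 56 were Hist1 genes, on chromosome 13, 10 were Hist2 genes, on chromosome 3, 3 were Hist3 genes, on chromosome 11, and Hist4h4 lay alone on chromosome 6. The study compared poly(A)-selected, strand-specific RNA-seq of the developing and the mature mouse pituitary gland. The 7 embryo libraries were made from Rathke's pouch, the primordium of the anterior and intermediate lobes, at embryonic day 13.5, from embryos heterozygous for the Sox2Egfp allele (Sox2Egfp/+). The 2 adult libraries were made from pituitaries at postnatal week 8 with the posterior lobe removed, and no allele was named for them. Strain was 129Sv/c57BL6J in both groups. Each group held both sexes according to the study's methods, but the sex of single libraries was not given. Each library held between 16738863 and 36421545 counted read pairs, and levels are given in CPM, the counts of a gene relative to its library's total after scaling with edgeR's TMM factors.

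Histones package DNA into nucleosomes, in which H2A, H2B, H3 and H4 form the core and H1 binds the linker. The genes described here are switched on as DNA is copied, so that their mRNAs peak in S phase, and most of these mRNAs end in a conserved stem-loop in place of a poly(A) tail. The stem-loop is bound by the protein SLBP, and the U7 small nuclear RNA guides the cleavage that makes this end. Some members also give longer, polyadenylated transcripts, which are known from differentiated cells and which poly(A) selection retains, while it removes most RNA that ends at the stem-loop.

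A search for the perfect 16-base stem-loop, with 6 paired bases on each side of a 4-base loop, found it in an annotated transcript of 46 of the 70 histone genes, and in the longest transcript of 1.1% of all 19371 genes tested. In the H1, H2A, H2B and H3 genes the stem read GGCTCT on its 5′ side, whereas the H4 genes carried GGCCCT or GGTCCT. The stem-loops of the members on which the results turn are shown because the annotated distance from this element to the transcript's end separates the genes described further on. Each line gives the stem-loop in capitals with 5 flanking bases on either side in lower case, 5′ to 3′ on the transcript's strand, in GENCODE M21 (GRCm38).
Hist3h2ba: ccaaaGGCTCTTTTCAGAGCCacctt
Hist1h2ag: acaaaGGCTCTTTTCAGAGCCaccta
Hist1h3c: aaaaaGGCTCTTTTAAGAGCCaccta
Hist1h1c: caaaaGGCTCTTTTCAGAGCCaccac
Hist1h4i: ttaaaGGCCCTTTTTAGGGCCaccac
Hist1h4b: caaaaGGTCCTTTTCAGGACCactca
In Hist1h2ag, 23 annotated bases followed the stem-loop, in Hist1h4b 28 and in Hist1h3c 74. Transcripts of Hist3h2ba ran on for 169 bases, of Hist1h4i for 330 and of Hist1h1c for 840, and each of these 3 carried the polyadenylation signal, AATAAA or the variant ATTAAA, within its last 40 bases.

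The tissue of both groups was checked against markers. Hesx1, a transcription factor of the pouch, lay between 11 and 40.3 CPM in the embryos and at 0.339 and 0.562 CPM in the adults, and was called higher in the embryo (log2 fold change 5.77 ± 0.59, SE, edgeR adjusted p = 5.2e-06). Growth hormone (Gh) lay at 53441 and 63814 CPM in the adults and at no more than 1.9 CPM in the embryos, and 9 of 10 markers of the adult lobes were called higher in the adult, the exception being Tshb (median −8.97). Sox2, of which the embryos carry 1 Egfp allele, had a mean of 37.3 CPM in the embryos and 60.4 CPM in the adults. Embryos 1 and 4 stood apart from the other embryos. Genes took up only 59.7% and 62.8% of their read pairs, where the other embryos had 73.9% to 80%, and the 7 erythroid markers summed to 113448 and 144379 CPM there, against 4766 to 13723 CPM in the other embryos and 36 and 106 CPM in the adults. Hbb-y, an embryonic globin, made up 89.2% of the embryo sum, and 6 of the 7 markers were called higher in the embryo (median log2 fold change 5.20). The main counts and the class sums are given with and without these 2 libraries.

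Summed over all 70 genes, histone transcripts were at 454 ± 113 CPM in the embryo and 234 ± 6.38 CPM in the adult (SD, n = 7 and n = 2). Embryo 7 was the lowest of the embryos at 286 CPM and Embryo 4 the highest at 635 CPM, and every embryo lay above both adults, at 229 and 238 CPM. This separation was lost once counts were corrected for transcript length and GC content, which put the adults at 349 and 373 CPM. Embryos 1, 5 and 7 then lay below both adults (325, 342 and 342 CPM), and only Embryos 3 and 4 above both (435 and 418 CPM). The sum was carried by few genes. Hist3h2ba, Hist1h1c, Hist2h2be, Hist1h4i and Hist1h2bc, the 5 with the highest mean CPM in the embryo, held 358 of the 454 CPM in the embryo and 154 of the 234 CPM in the adult. The other 65 genes together were at 96.2 ± 37.7 CPM in the embryo and 79.8 ± 6.65 CPM in the adult (SD, n = 7 and n = 2), and at 77.3 ± 19 CPM (SD, n = 5) in the embryo without Embryos 1 and 4. In bulk tissue, fewer cells of a type and less RNA per cell cannot be told apart.

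The classes differed in how far embryo and adult lay apart, in log2 of the ratio of mean summed levels, and each sum is a description with no test. H3 had the widest difference, at 1.76 (18.4 ± 9.9 and 5.46 ± 0.865 CPM, SD, n = 7 embryos and n = 2 adults), and the lowest total. H4 followed at 1.36, with 48.7 ± 19.7 and 19 ± 3.75 CPM (SD, n = 7 and n = 2), but turned to −0.31 once counts were corrected for transcript length and GC content. H2B, the class with the highest sum, was at 282 ± 73.8 and 121 ± 5.39 CPM (SD, n = 7 and n = 2), a log2 ratio of 1.23. H2A was at 38 ± 7.34 and 20.4 ± 2.55 CPM (SD, n = 7 and n = 2), a ratio of 0.90. H1 was at 66.6 ± 19.4 and 68.6 ± 6.19 CPM (SD, n = 7 and n = 2), so that both adults, at 73 and 64.2 CPM, lay inside the embryo range of 45.5 to 101 CPM, and its ratio of −0.04 became −0.90 with the length and GC correction and ran from −0.14 to 0.07 with single libraries left out. In the 4 core classes the lowest embryo lay above the higher adult, by the least in H4 (22.3 against 21.7 CPM) and H3 (6.86 against 6.07 CPM), and Embryo 7 was the lowest in each. With the length and GC correction the ratios were 0.29 for H3, 0.46 for H2B, 0.05 for H2A and 0.03 for all 70 genes. Without Embryos 1 and 4, and with the scaling kept, they were 1.26 for H3, 1.03 for H4, 1.16 for H2B, 0.79 for H2A and −0.08 for H1.

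**Figure D1:**
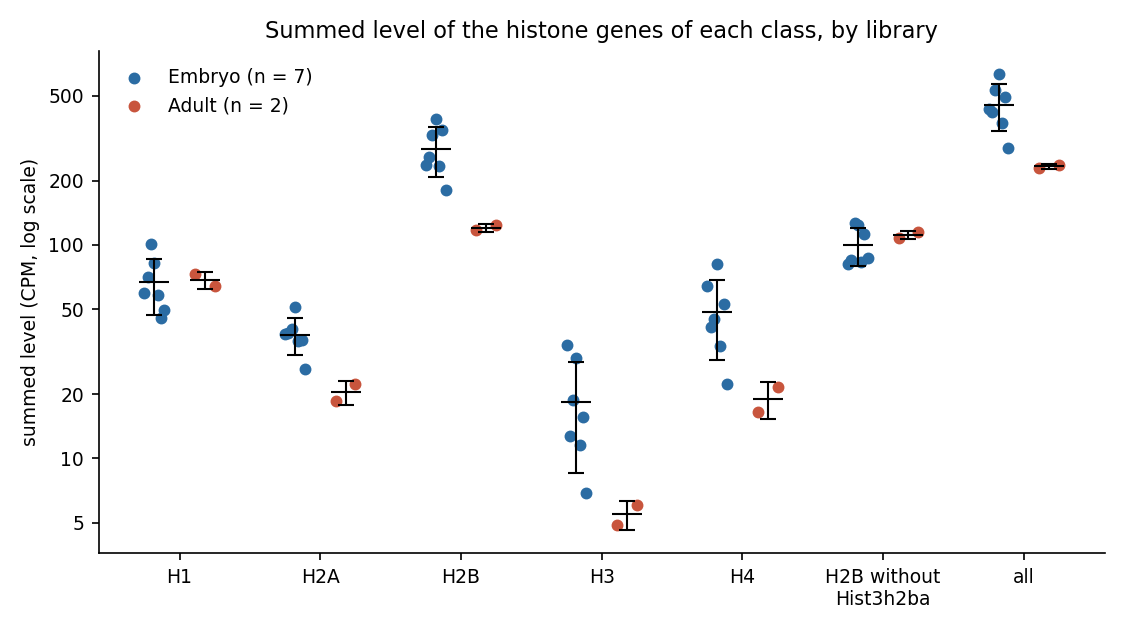
Summed level of the histone genes of each class in each library, in CPM on a log scale, with the mean and SD as bars (embryo, n = 7; adult, n = 2). Both adults lie within the embryo range for H1 and for H2B without Hist3h2ba, and below every embryo for the other sets.

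Each gene was compared by the quasi-likelihood test of edgeR across 19371 genes whose mean count over the 9 libraries was at least 5, and called at a Benjamini-Hochberg adjusted p below 0.05 with a fold change above 4. The p-values measure the spread between animals, with 2 on the adult side. Of the 70 histone genes 53 passed the filter. A gene at or near 0 in the adults could pass through the embryos alone, so the counts that follow describe the tested genes and not all members. In the embryo, 19 of the 53 were called higher, where 11.3% of all tested genes were. In the adult, 3 of the 53 were called higher, Hist1h1e, Hist1h2be and the pseudogene Hist1h2al, where 14.6% of all tested genes were. At the adjusted p alone 26 passed, against 51.4% of all genes. All embryos lay above both adults for 25 of the 53 genes (26.2% of all genes) and below both for 6 (32.9% of all genes), and 22 overlapped. Chance gives 2.78% for each direction with 7 against 2 libraries. The median log2 fold change, embryo over adult, was 1.79 for the histone genes and −0.04 for all genes. Setting the 9 tested genes with 3 counts or fewer in the adults together at the level of 3 counts per adult library left the median at 1.79. Library-size scaling alone moved the median of all genes by −0.22, to −0.26, and that of the histone genes to 1.44. With 1 adult in the fit, fewer genes were called in the embryo or passed the adjusted p, and the adult count was unchanged. Without Adult 1, 9 genes were called higher in the embryo and 3 in the adult, and 13 passed the adjusted p alone. Without Adult 2 these counts were 10, 3 and 14. Without Embryos 1 and 4, 19 and 5 were called, and the median was 1.32. With counts corrected for transcript length and GC content, 12 and 8 were called.

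The counts were also split by annotation group, and differences between the groups were not tested. By class, the median log2 fold change was 1.55 for H1, 1.79 for H2A, 1.39 for H2B, 2.50 for H3 and 1.47 for H4. With the length and GC correction these medians were 1.38, 0.89, 0.71, 0.89 and −0.19, so that H1 had the highest. Of 46 tested Hist1 genes 18 were called higher in the embryo and 3 in the adult (median 2.16), of 3 Hist2 genes none by edgeR (median −1.75), and of 3 Hist3 genes 1 in the embryo (median 1.15). The 50 protein-coding genes held 19 and 2 of the calls (median 1.87) and the 3 pseudogenes 0 and 1 (median 0.93). The 2 tested genes with a transcript of several exons had a median of −1.93, with 1 called higher in the adult, and the 51 with single-exon transcripts only had 1.83, with 19 and 2 called. Of 12 genes with a polyadenylation signal in the last 40 bases of the transcript 2 and 1 were called (median 0.82), and of 41 without it 17 and 2 (median 2.50), where 65.9% of all tested genes carry the signal. Over all tested genes 11.3% were called higher in the embryo and 14.6% in the adult.

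Short transcripts as a whole were higher in the embryo libraries, and most histone genes are short. Over all genes, the log2 fold change fell with the length of the longest transcript (Spearman −0.388 across 19371 genes, which are not independent replicates), and genes of up to 1000 bp had a median of 1.52, longer ones −0.19. Of the 38 tested histone genes of up to 1000 bp, 18 were called higher in the embryo and 1 in the adult, where 30.7% and 7.73% of all genes of that length were, and their median was 2.99 (2.55 with the genes of 3 or fewer adult counts set at 3 counts per library). Of the 15 longer histone genes, 1 was called higher in the embryo (Hist1h4d, named after its values were seen) and 2 in the adult (Hist1h1e and Hist1h2be), where 8.71% and 15.4% of all longer genes were, and their median was −0.00. With the length and GC correction, 11 of the 19 calls in the embryo and all 3 in the adult were kept. Hist1h1d (chosen after its values were seen) was gained in the embryo, at a log2 fold change of 3.50 in place of 1.55. In the adult 5 were gained, Hist1h2bg, Hist1h4h, Hist2h3c2, Hist2h4 and Hist1h2ad (Hist1h2ad and Hist1h2bg chosen after their values were seen), and the median over the 53 genes was 0.71. Whether length itself plays a part in the difference was not tested.

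**Figure D2:**
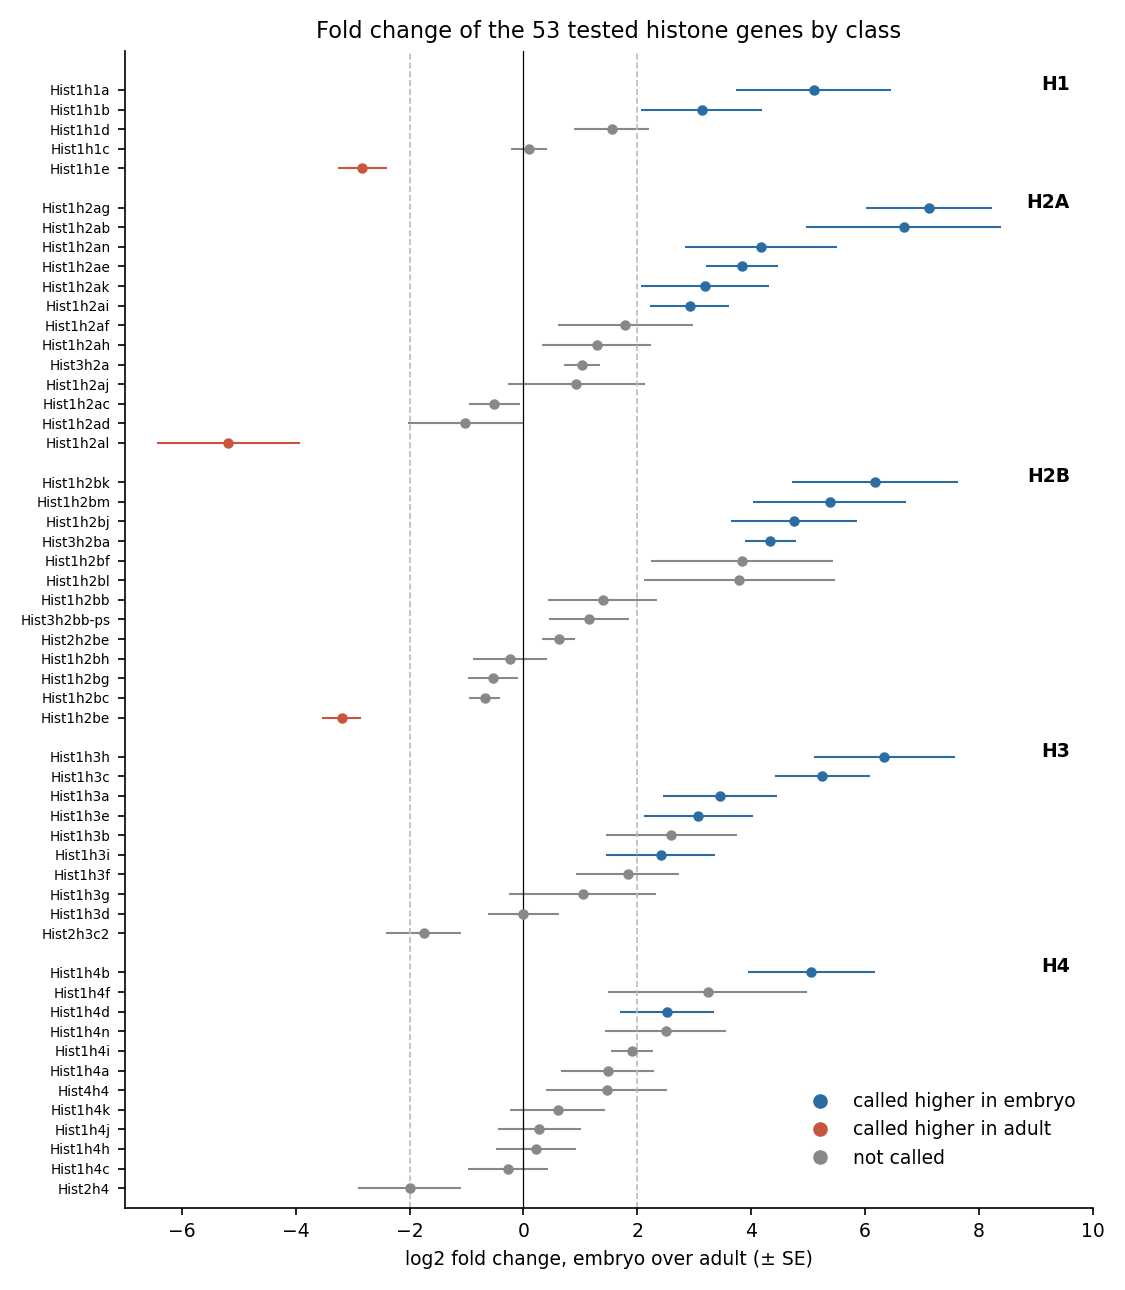
Log2 fold change, embryo over adult, with its standard error for each of the 53 tested histone genes, grouped by class; dashed lines mark 4-fold. Blue marks the 19 genes called higher in the embryo, red the 3 called higher in the adult and grey the 31 not called, and each class holds genes on both sides of 0.

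Among the H1 genes, which encode the linker histones, 2 of 5 tested were called higher in the embryo and 1 in the adult. Hist1h1c, which made up 90.2% of the H1 sum in the embryo and 81.9% in the adult, lay between 40.7 and 93.7 CPM in the embryos, with a median of 54.2 CPM, and at 59.4 and 52.9 CPM in the adults. The groups overlapped, and its log2 fold change was 0.10 ± 0.31 (SE), with an edgeR adjusted p of 0.809. This value turned to −0.13 with library-size scaling and to −0.84 with the length and GC correction (edgeR adjusted p = 0.00814, over a range of 0.00814 to 0.997 across the alternatives). Hist1h1e showed the opposite of the general direction. It was at 0.802, 1.48 and 2.68 CPM in the lowest, median and highest embryo and at 12.6 and 10.1 CPM in the adults, so that both adults exceeded every embryo, with a log2 fold change of −2.83 ± 0.43 (SE, edgeR adjusted p = 1.3e-04). Its gene model overlaps that of Hist1h2be on the same strand, and read pairs that fall on both were counted for neither.

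Hist1h1a and Hist1h1b were low genes that were all but lost in the adult. Hist1h1a ranged from 0.257 to 2.26 CPM in the embryos (median 0.743 CPM) and had 2 read pairs in Adult 1 and none in Adult 2. Against the pooled adult level this was a ratio of 40.1, with a 95% exact Poisson interval of 11.1 to 331. That interval covers the counting error of the adults only. All 7 embryos lay above both adults (edgeR adjusted p = 0.00637), and the gene passed the filter through the embryos alone. Without Adult 2 the call was lost (edgeR adjusted p = 0.0756, over a range of 4.0e-04 to 0.0756 across the alternatives). Hist1h1b ranged from 0.224 to 2.26 CPM in the embryos and lay at 0.0969 and 0.14 CPM in the adults, a log2 fold change of 3.13 ± 1.06 (SE, edgeR adjusted p = 0.0232). Both genes were highest in Embryos 1 and 4 and lowest in Embryo 7. Without Embryos 1 and 4 the log2 fold change was 4.35 in place of 5.10 for Hist1h1a, and 2.45 in place of 3.13 for Hist1h1b. That of Hist1h1a was 3.47 with the length and GC correction, 7.66 without Adult 1 and 4.26 without Adult 2. The call of Hist1h1b was lost without Adult 1 (edgeR adjusted p = 0.158), without Adult 2 (0.115), with the length and GC correction (0.181), with the replicate block (0.219) and with only Embryos 1 and 2 and both adults (0.0719), over a range of 0.00337 to 0.219 across the alternatives. Hist1h1t, a linker histone of the testis, had at most 0.0962 CPM in any library and was not tested.

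Of the 13 tested H2A genes, 6 were called higher in the embryo and 1 in the adult. With the length and GC correction these counts were 3 and 2, and fewer were called in the embryo with either adult left out. Hist3h2a, from the small cluster on chromosome 11, gave 45.1% of the H2A sum in the embryo and 41.1% in the adult. It lay between 13.9 and 22.2 CPM in the embryos (median 17.8 CPM) and at 7.54 and 9.22 CPM in the adults. All embryos were above both adults, at a log2 fold change of 1.03 ± 0.31 (SE, edgeR adjusted p = 0.0134), below the fold threshold. The adjusted p was above 0.05 with library size alone (0.101), without Adult 1 (0.153), without Adult 2 (0.0716), with the replicate block (0.0791) and with only Embryos 1 and 2 and both adults (0.0655), over a range of 0.00135 to 0.153. Its embryos had the least relative spread among the 6 members with a mean of at least 10 CPM there (coefficient of variation 18%). Per kilobase of exon, the scale used here for levels of different genes, Hist1h2ae had the highest counted level of the H2A genes in the embryo, at 11.5 CPM per kb. Hist1h2ai was at 6.44 CPM per kb, but read pairs it shares with other genes went uncounted, so the order of their true levels cannot be told. Hist1h2ae was at 3.27, 6.88 and 14.4 CPM in the lowest, median and highest embryo and at 0.388 and 0.731 CPM in the adults, so the groups were well apart, and its log2 fold change of 3.84 ± 0.64 (SE, edgeR adjusted p = 2.6e-04) was 2.08 with the length and GC correction.

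Hist1h2ai and Hist1h2ag were near 0 in the adult and low in the embryo. Hist1h2ai lay between 1.12 and 4.37 CPM in the embryos (median 2.46 CPM) and at 0.267 and 0.393 CPM in the adults, a log2 fold change of 2.92 ± 0.69 (SE, edgeR adjusted p = 0.00293). Its call was lost without Adult 1 (edgeR adjusted p = 0.0515), with the length and GC correction (0.0608) and with the replicate block (0.111), over a range of 1.3e-05 to 0.111, and only 10.7% of its 75-base stretches occur in no other annotated gene. Hist1h2ag had 1 read pair in the adults together and 361 in the embryos, so it passed the filter through the embryos alone. There it lay between 1.67 and 5.71 CPM, a ratio of 193 with a 95% exact Poisson interval of 34.7 to 7634 (edgeR adjusted p = 1.6e-04, all 7 embryos above both adults). Embryo 1 alone, at 5.71 CPM, lay far above the next embryo at 2.92 CPM. The fitted log2 fold change of 7.12 was 5.60 with the length and GC correction, 6.22 without Adult 1 and 8.98 without Adult 2. Hist1h2ab, named after its values were seen, was absent from both adults and lay between 0.099 and 1.1 CPM in the embryos. Its mean there was at least 6.23-fold above a floor of 3 counts per adult library. It passed the filter through the embryos alone, and its call was lost without Adult 1, without Adult 2, with the unstranded count and with the replicate block.

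The pseudogene Hist1h2al was the H2A member called higher in the adult, and it lies at chr13:51202727-51203065, far from the other Hist1 genes. It had 3.93 and 3.79 CPM in the adults, and in the embryos no count in 5 libraries, 0.0321 CPM in Embryo 7 and 0.846 CPM in Embryo 4. Its log2 fold change was −5.18 ± 1.25 (SE, edgeR adjusted p = 0.0035), and DESeq2 gave an adjusted p of 0.166 (range across the alternatives 3.7e-06 to 0.166). Without Embryo 4 the value was −8.40 (edgeR adjusted p = 8.9e-06). Its counted level in the adult was 11.4 CPM per kb. Hist1h2aa, an H2A of the testis, had no count in any library.

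Of the 13 tested H2B genes, 4 were called higher in the embryo and 1 in the adult. Among the 70 genes, Hist3h2ba had the highest counted level in the embryo, per kilobase as well. It gave 64.6% of the H2B sum and 40.1% of the sum of all 70 there. Since poly(A) selection removes most RNA that ends at the stem-loop and shared pairs went uncounted, the order of true levels cannot be told. It spans chr11:58948920-58949533 on the plus strand. It was at 157, 173, 201, 266, 152, 234 and 93.6 CPM in Embryos 1 to 7, and at 8.34 and 9.69 CPM in the adults. Every embryo, Embryo 7 included, lay far above both adults, and the log2 fold change was 4.34 ± 0.44 (SE, edgeR adjusted p = 5.1e-06). The call was kept under each of the 20 alternatives, with log2 fold changes from 2.49, with the length and GC correction, to 4.45. Per kilobase it lay at 297 in the embryo and 14.7 CPM per kb in the adult, where Hist1h2bc was higher at 37.1 CPM per kb. Without Hist3h2ba the H2B genes summed to 99.8 ± 20 CPM in the embryo and 112 ± 4.43 CPM in the adult (SD, n = 7 and n = 2), and the groups overlapped.

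The H2B genes behind the adult sum were Hist1h2bc, Hist2h2be and Hist1h2be. Hist1h2bc lay between 19.9 and 39.8 CPM in the embryos (median 27.1 CPM) and at 43 and 42.7 CPM in the adults. Both adults exceeded every embryo, by little only for the highest, Embryo 4, which stood well above the next at 27.9 CPM. The log2 fold change was −0.68 ± 0.27 (SE, edgeR adjusted p = 0.0497, over a range of 9.2e-05 to 0.195 across the alternatives). Hist2h2be ran the other way, from 43.4 to 81.1 CPM in the embryos (median 54.4 CPM) against 36.1 and 40.1 CPM, with a log2 fold change of 0.62 ± 0.29 (SE, edgeR adjusted p = 0.0845) that did not pass the test although no values overlapped. It passed the adjusted p without Embryo 1 (0.0368), without Embryos 1 and 4 (0.0401) and with the length and GC correction (0.02), over a range of 0.02 to 0.591. Hist1h2be lay between 1.54 and 3.74 CPM in the embryos (median 2.73 CPM) and at 22.2 and 25.3 CPM in the adults. Both adults lay far above every embryo, at a log2 fold change of −3.19 ± 0.34 (SE, edgeR adjusted p = 6.8e-06), and it shares with Hist1h1e the overlap of gene models described above. Hist1h2bk, with 1 adult read pair against 171 in the embryos, passed the filter through the embryos alone. It gave a ratio of 98.3 (95% exact Poisson interval 17.7 to 3884, edgeR adjusted p = 0.00296, all 7 embryos above both adults). Its fitted log2 fold change of 6.18 was 3.51 with the unstranded count and 4.27 with the length and GC correction. The pseudogene Hist3h2bb-ps lay between 0.641 and 1.34 CPM in the embryos and at 0.339 and 0.534 CPM in the adults, a log2 fold change of 1.15 ± 0.70 (SE, edgeR adjusted p = 0.186) that turned to −0.91 with the length and GC correction. Hist1h2ba, the H2B of the testis, had no count in any library.

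Of the 10 tested H3 genes, 5 were called higher in the embryo and none in the adult by edgeR, where 1 (Hist2h3c2) passed the adjusted p alone with a negative value. With the length and GC correction, 2 and 1 were called. Leaving out either adult also lowered the count in the embryo. Hist1h3c, which gave 33.9% of the H3 sum in the embryo, lay between 1.99 and 10.6 CPM in the embryos (median 6.63 CPM) and at 0.0969 and 0.225 CPM in the adults. The lowest embryo, Embryo 7, was still above both adults, and the log2 fold change was 5.25 ± 0.83 (SE, edgeR adjusted p = 1.8e-04), or 3.36 with the length and GC correction. Hist1h3h had 2 read pairs in the adults and 334 in the embryos, so it passed the filter through the embryos alone. There it lay between 0.673 and 5.49 CPM, a ratio of 94.9 with a 95% exact Poisson interval of 26.3 to 784 (edgeR adjusted p = 8.1e-04, all 7 embryos above both adults). The fitted log2 fold change of 6.34 was 4.63 with the length and GC correction and 5.70 without Embryos 1 and 4. Without Adult 1 it was 8.91 and without Adult 2 it was 5.51. Of its 75-base stretches only 6.53% were unique among annotated transcripts, so most of its read pairs would map to several genes and go uncounted. Hist1h3i was called narrowly, between 0.802 and 5.86 CPM in the embryos (median 0.974 CPM) and at 0.291 and 0.365 CPM in the adults (log2 fold change 2.41 ± 0.96, SE, edgeR adjusted p = 0.0482). Its highest value came from Embryo 1, far above the 2.12 CPM of Embryo 4. The call was lost in 12 of 20 alternatives. Its log2 fold change was 1.77 without Embryo 1, 1.48 without Embryos 1 and 4 and 0.45 with the length and GC correction, and the edgeR adjusted p ranged from 0.0119 to 0.597 across the alternatives.

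In the adult the H3 sum was led by Hist2h3c2, which gave 47.7% of it. This gene was at 2.25 and 2.95 CPM in the adults and between 0.148 and 1.27 CPM in the embryos (median 0.878 CPM). No embryo reached the lower adult, and its log2 fold change of −1.75 ± 0.66 (SE, edgeR adjusted p = 0.0386) missed the fold threshold but was −2.95 with the length and GC correction, where it was called higher in the adult. Hist1h3d lay at 1.04 and 1.6 CPM in the adults, within the embryo range of 0.577 to 2.56 CPM, at a log2 fold change of −0.00 ± 0.63 (SE, edgeR adjusted p = 0.997).

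Of the 12 tested H4 genes, 2 (Hist1h4b and Hist1h4d) were called higher in the embryo and none in the adult by edgeR, and 3 passed the adjusted p alone. Hist1h4i had the highest counted level, with 62% of the H4 sum in the embryo and 42.2% in the adult. It lay between 17 and 42.2 CPM in the embryos (median 28.9 CPM) and at 7.49 and 8.54 CPM in the adults. Every embryo was above both adults, and the log2 fold change of 1.91 ± 0.37 (SE, edgeR adjusted p = 7.9e-04) fell just below the fold threshold and was 0.22 with the length and GC correction. It was called without Embryo 7 (2.01) and, with Embryos 1 and 2 and both adults only, with and without the replicate block (2.05). Hist1h4b, between 0.449 and 6.63 CPM in the embryos (median 2.32 CPM) and at 0.0727 and 0.112 CPM in the adults, had a log2 fold change of 5.06 ± 1.11 (SE, edgeR adjusted p = 0.00178), or 2.71 with the length and GC correction. With the unstranded count, where a gene on the other strand overlaps it, it was not tested. It was highest in Embryos 1 and 4 and lowest in Embryo 7, where it still exceeded both adults.

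Hist1h4d, chosen after its values were seen, lay between 0.93 and 6.56 CPM in the embryos (median 2.23 CPM) and at 0.509 and 0.421 CPM in the adults, below every embryo. Its log2 fold change was 2.52 ± 0.82 (SE, edgeR adjusted p = 0.0196). The call was lost without Adult 1 and without Adult 2. It was also lost with only Embryos 1 and 2 and both adults, with and without the replicate block, and with the length and GC correction (1.44). Hist1h4h, Hist2h4 and Hist4h4 were not called. Hist1h4h lay between 0.738 and 6.37 CPM in the embryos and at 2.71 and 2.28 CPM in the adults. Its log2 fold change of 0.22 ± 0.70 (SE, edgeR adjusted p = 0.81) turned negative with library-size scaling (−0.12), without Embryo 1 (−0.05) and with the length and GC correction (−2.00), where it was called higher in the adult. Hist2h4 was at 1.84 and 2.64 CPM in the adults and between 0.0641 and 1.83 CPM in the embryos, so that Embryo 1, the highest, all but reached Adult 1. Its log2 fold change was −2.00 ± 0.91 (SE, edgeR adjusted p = 0.0791), and without Embryo 1 it was −2.61 with an edgeR adjusted p of 0.0116 (range across the alternatives 3.9e-04 to 0.442). It was called higher in the adult there, with library size alone (−2.39), with the length and GC correction (−2.74) and without Embryos 1 and 4 (−3.39). Hist4h4 ranged from 0.128 to 2.19 CPM in the embryos, around the adults at 0.388 and 0.309 CPM (log2 fold change 1.46 ± 1.07, SE, edgeR adjusted p = 0.27).

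The members differed by the annotated end of their transcripts. The groups were set at 100 bases after the stem-loop, and the split is a description chosen with earlier results known. In 23 genes the transcript ended within that distance, in 23 it ran further, and in 24 no perfect stem-loop was found. The search covered annotated transcripts only, so a gene model that stops before the stem-loop would give no match. These 24 genes are therefore not shown to lack one. Of the 16 tested genes that end at the stem-loop, 8 were called higher in the embryo and none in the adult by edgeR, with a median log2 fold change of 3.65, or 2.86 with the 6 genes of 3 or fewer adult counts set at 3 counts per library. Of the 21 tested genes that run past it, 4 were called higher in the embryo and 2 in the adult. Over all tested genes 11.3% and 14.6% were, and of those of up to 1000 bp 30.7% and 7.73%. The median of the genes that run past the stem-loop was 0.28, or 0.13 without Embryos 1 and 4 and 1.17 without Adult 2. For these the direction turned with scaling, to −0.02 with library size alone and −0.50 with the length and GC correction, where the genes ending at the stem-loop had a median of 1.64. Of the 16 tested genes in which no stem-loop was found, 7 were called higher in the embryo and 1 in the adult. Their median was 2.10, or 1.91 with genes of 3 or fewer adult counts set at 3 counts per library. With either adult left out, fewer genes were called higher in the embryo in each group. For genes that end at the stem-loop, run past it and had none found, these calls went from 8, 4 and 7 to 7, 3 and 2 with the length and GC correction. With that correction the calls in the adult went from 0, 2 and 1 to 2, 5 and 1. Without Adult 2 the median of the genes ending at the stem-loop was 4.83. The median longest transcript was 485 bases for genes that end at the stem-loop, 1249 for those that run past it and 402 for those with none found. The parts of end and length were not tested.

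**Figure D3:**
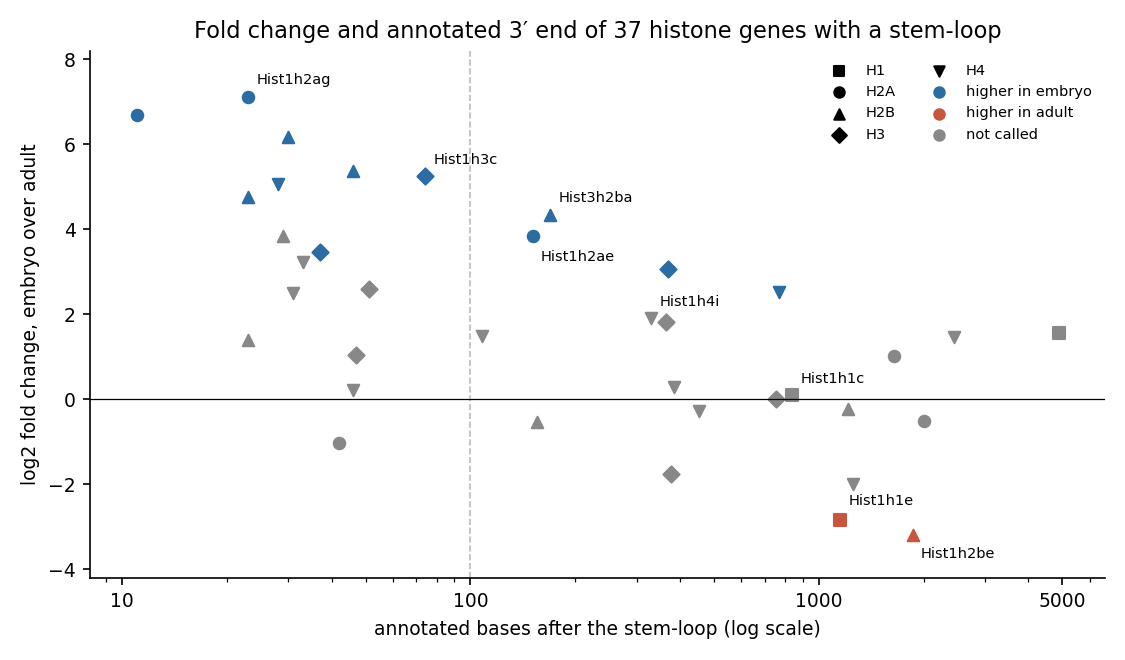
Log2 fold change, embryo over adult, of the 37 tested histone genes with a perfect stem-loop, against the number of annotated bases after it on a log scale; symbols mark the class and colours the call. To the left of the dashed line at 100 bases 15 of 16 values are above 0, and both genes called higher in the adult, Hist1h1e and Hist1h2be, lie beyond 1000 bases.

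By counted level after poly(A) selection, the genes that end at the stem-loop were a small share of the total and varied the most of the 3 groups between embryos. They summed to 42.9, 18, 28.9, 50, 14.6, 25.2 and 8.11 CPM in Embryos 1 to 7 and to 5.84 and 5.48 CPM in the adults. Embryo 4 was 6.16 times Embryo 7, whereas for the genes that run past the stem-loop, at 193 to 461 CPM in the embryos and 138 and 143 CPM in the adults, that ratio was 2.39. Genes with no stem-loop found, led by Hist2h2be and Hist1h2bc, summed to 82.9 to 124 CPM in the embryos and 85.6 and 89.9 CPM in the adults, and overlapped. Without Embryos 1 and 4, the genes ending at the stem-loop averaged 19 ± 8.3 CPM (SD, n = 5) in the embryo, a log2 ratio of 1.74 in place of 2.25, and 8 of them were called higher in the embryo and 1 in the adult.

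RNAs that have no poly(A) tail were measured in the same libraries, as a measure of such RNA carried through poly(A) selection. The list of 13 summed to 89.7, 26.3, 32.2, 79.5, 11.1, 26 and 7.86 CPM in Embryos 1 to 7 and to 2.71 and 2.67 CPM in the adults. Without Embryos 1 and 4 the embryo mean was 20.7 CPM in place of 39 CPM. The log2 ratio of embryo to adult was then 2.94 in place of 3.86. Rn7sk was the most abundant, with 75% of the embryo sum, and Rmrp, Rpph1 and Rn7s2 were at 0 in every library. Of 8 tested genes 4 were called higher in the embryo and none in the adult by edgeR, where 11.3% and 14.6% of all genes were. Of all tested genes of up to 1000 bp, 30.7% and 7.73% were. The median log2 fold change of the 8 was 3.15. Snord118, at 0 in both adults, and Rny3, at 0.0727 and 0.0281 CPM there, passed the filter through the embryos alone. Embryos 1, 4 and 3 held the 3 highest values and Embryos 5 and 7 the lowest, both for these RNAs and for the histone genes that end at the stem-loop. The sum of the markers of dividing cells, led by Cdk1, was highest in Embryo 6 at 644 CPM and lowest in Embryo 5 at 397 CPM. Among its genes, Mki67 was highest in Embryos 4 and 1 (45.5 and 34.3 CPM) and lowest in Embryo 7 (9.36 CPM), and Top2a was highest in Embryos 1 and 4 (79 and 77.1 CPM). Cdk1 (128 CPM) and Ccnb1 (80.1 CPM) were lowest in Embryo 1, Aurkb was lowest in Embryo 4 (24 CPM), and Birc5 was highest in Embryo 4 (97.1 CPM) and lowest in Embryo 7 (57.7 CPM). Erythroid markers were highest in Embryos 4 and 1 and lowest in Embryo 7. The part of carried-over RNA and of blood cells in the histone values was not tested.

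**Figure D4:**
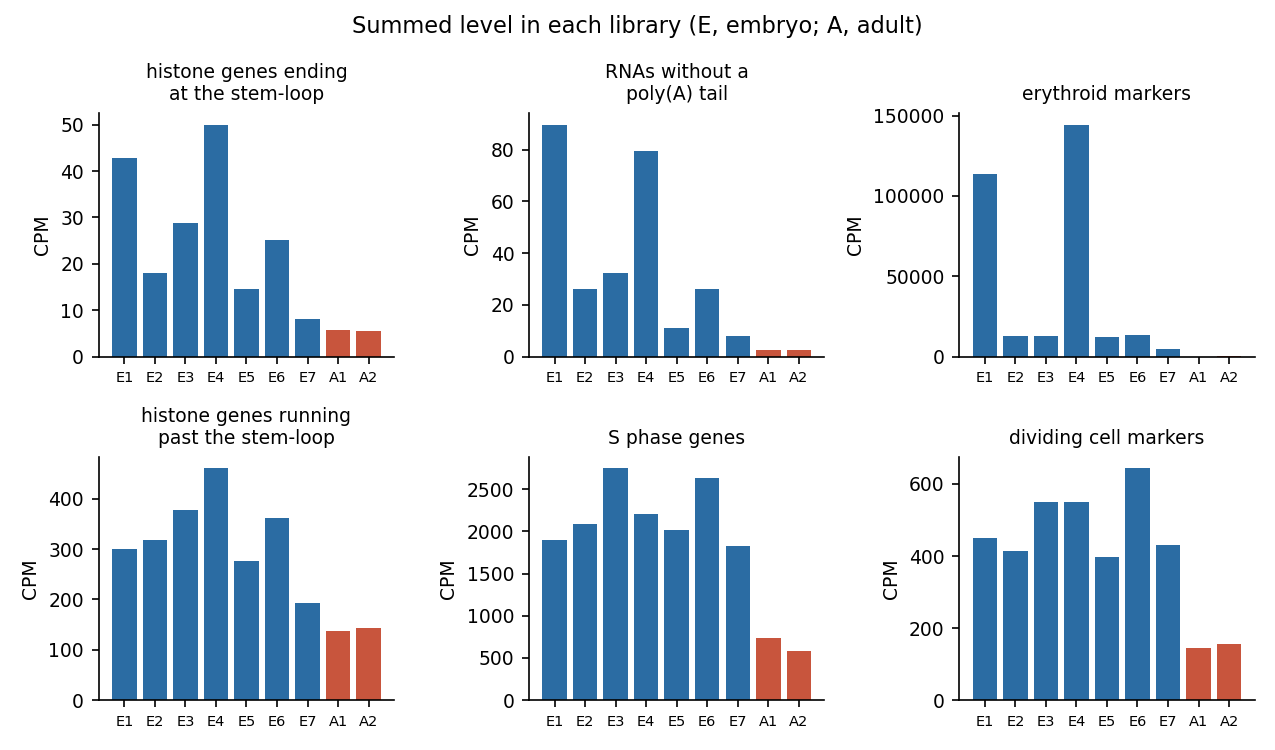
Summed level in CPM in each library for 2 groups of histone genes and for RNAs without a poly(A) tail, erythroid markers, S phase genes and markers of dividing cells; blue bars are the 7 embryos and red bars the 2 adults. Embryos 1 and 4 are the highest for the genes ending at the stem-loop, for RNAs without a poly(A) tail and for erythroid markers, but not for the sums of S phase genes or markers of dividing cells.

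The spread between embryos was not even over the libraries. Of the 53 tested histone genes, 31 had their highest embryo value in Embryo 4 and 13 in Embryo 1, and 29 had their lowest in Embryo 7. With library-size scaling these counts were 23, 13 and 22. The coefficient of variation over the 7 embryos had a median of 26.4% for the 6 genes with an embryo mean of at least 10 CPM, 70.2% for the 26 genes between 1 and 10 CPM, and 91% for the 32 genes with counts under 1 CPM. Within these groups it ranged widely, from 30.3% (Hist1h2be) to 105% between 1 and 10 CPM and from 28.2% (Hist3h2bb-ps) to 254% (Hist1h2al) under 1 CPM, and its cause was not tested. The 2 adults differed by less than 1.5 times for 29 of the 53 genes.

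H2A and H2B genes often lie head to head, and 14 such pairs on opposite strands, 172 to 305 bases apart, were found among the members. They and the genes named in them were chosen after values were seen. In 8 of the 14 both genes were tested. Both were called higher in the embryo in 1 pair, Hist1h2ag (7.12) and Hist1h2bj (4.75, log2 fold changes). In 4 pairs 1 of the neighbours was called and in 3 neither was. Hist1h2ae and Hist1h2bg, which start 175 bases apart, were the only pair with 1 call in which both genes averaged above 1 CPM in the embryo. Hist1h2ae was at 8.08 CPM in the embryo and 0.559 CPM in the adult, whereas Hist1h2bg was at 3.02 and 4.35 CPM, with log2 fold changes of 3.84 ± 0.64 and −0.53 ± 0.44 (SE, edgeR adjusted p = 2.6e-04 and 0.332). With the length and GC correction Hist1h2bg was at −2.33 and was called higher in the adult. The transcripts of both run about as far past the stem-loop, by 151 and 155 bases. Hist1h2ac and Hist1h2bc (−0.51 and −0.68) and Hist3h2a and Hist3h2bb-ps (1.03 and 1.15) had like values, which parted with the length and GC correction to −0.50 and −1.46 and to 0.89 and −0.91. A difference within pairs was not tested.

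**Figure D5:**
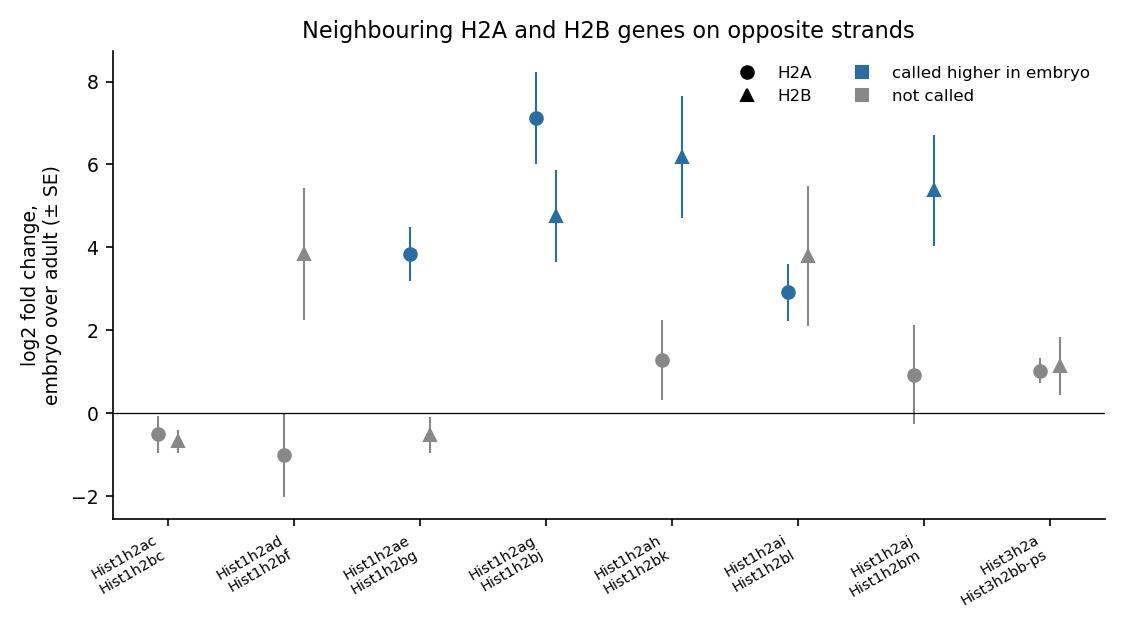
Log2 fold change, embryo over adult, with its standard error for the 8 neighbouring H2A (circles) and H2B (triangles) genes in which both were tested; blue marks genes called higher in the embryo. Hist1h2ag and Hist1h2bj were both called, whereas Hist1h2ae was called and Hist1h2bg, with a value below 0, was not.

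Promoters from RefSeq (GRCm38.p6), from 250 bases before to 50 bases after the start, were found for 62 of the 70 genes, 63 in all. Those of head-to-head neighbours overlap and are not independent. The motifs searched on both strands were TATAAA (the TATA box), CCAAT (bound by NF-Y) and ATTTGCAT (the octamer bound by POU factors such as Oct1). CCAAT was in 85.7% of the histone promoters and 37.4% of all 32851, TATAAA in 55.6% and 13.6%, and the octamer in 22.2% and 1.74%. The H1, H2A, H2B and H3 promoters each held CCAAT, the 12 H4 promoters in 25% only. The octamer was found in 38.9% of the H2A and 41.2% of the H2B promoters and in none of the other classes. The promoter of Hist1h2ae, on the minus strand at chr13:23571171-23571470, is shown because it covers the space shared with Hist1h2bg. That of Hist3h2ba, on the plus strand at chr11:58948661-58948960, is shown because it belongs to the member with the highest counted level in the embryo. Capitals mark the motifs on either strand. On the other strand the TATA box reads TTTATA, the NF-Y motif reads ATTGG and the octamer reads ATGCAAAT, and the TATA box may overlap its own reverse.
Hist1h2ae: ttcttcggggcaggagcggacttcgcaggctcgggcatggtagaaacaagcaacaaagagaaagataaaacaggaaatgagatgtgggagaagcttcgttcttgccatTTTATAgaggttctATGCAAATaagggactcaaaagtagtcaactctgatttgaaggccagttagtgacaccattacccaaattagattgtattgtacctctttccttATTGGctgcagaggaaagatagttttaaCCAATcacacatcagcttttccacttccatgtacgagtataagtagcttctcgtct
Hist3h2ba: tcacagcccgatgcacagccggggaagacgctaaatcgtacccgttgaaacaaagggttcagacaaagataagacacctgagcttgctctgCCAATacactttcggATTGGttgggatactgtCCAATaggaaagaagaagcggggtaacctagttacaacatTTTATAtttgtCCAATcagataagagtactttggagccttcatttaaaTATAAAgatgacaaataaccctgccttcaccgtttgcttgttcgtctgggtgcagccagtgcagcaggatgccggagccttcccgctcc
A match describes letters and not a bound site. The Hist1h2ae window holds a TATAAA and an octamer on the strand of Hist1h2bg.

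Genes that work with these histones were described by list. The replication-independent histones and histone variants, most of them made from polyadenylated mRNA, summed to 4609 ± 680 CPM in the embryo and 1352 ± 121 CPM in the adult (SD, n = 7 and n = 2). Of 11 tested, 7 were called higher in the embryo and none in the adult by edgeR, where 11.3% and 14.6% of all genes were. Their median log2 fold change was 2.28. Cenpa, the H3 variant of centromeres, lay between 85.6 and 184 CPM in the embryos and at 11.6 CPM in both adults, a log2 fold change of 3.54 ± 0.38 (SE, edgeR adjusted p = 7.7e-06). H2afz, which encodes the variant H2A.Z, lay between 593 and 1202 CPM in the embryos and at 118 and 120 CPM in the adults, a log2 fold change of 2.73 ± 0.39 (SE, edgeR adjusted p = 8.1e-05). H3f3b, the most abundant of the list and a source of H3.3, was at 1345 CPM in the embryo and 525 CPM in the adult, with a log2 fold change of 1.36 ± 0.30 (SE, edgeR adjusted p = 0.00207), below the fold threshold.

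Of the 18 genes for transcription and 3′ processing of histone mRNA, 2 were called higher in the embryo and none in the adult by edgeR, where 11.3% and 14.6% of all genes were, and 9 passed the adjusted p alone, where 51.4% of all genes did. Their median log2 fold change was 0.31. The 2 were Lsm10, a part of the U7 particle (2.02 ± 0.32, SE, edgeR adjusted p = 1.7e-04), and Lsm1, which acts in histone mRNA decay (2.04 ± 0.33, SE, edgeR adjusted p = 2.3e-04). Slbp, which encodes the protein that binds the stem-loop, lay between 60 and 101 CPM in the embryos and at 34.4 and 28.8 CPM in the adults, with a log2 fold change of 1.27 ± 0.28 (SE, edgeR adjusted p = 0.00204), short of the fold threshold. Npat, the coactivator of histone gene transcription, lay the other way, between 5.07 and 13.7 CPM in the embryos and at 32.3 and 35.7 CPM in the adults (log2 fold change −1.88 ± 0.35, SE, edgeR adjusted p = 5.9e-04). All embryos lay below both adults for Npat, and above both for Slbp, Lsm10 and Lsm1.

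Of 16 histone chaperones and acetylation factors, 1 was called higher in the embryo and 1 in the adult, where 11.3% and 14.6% of all genes were. Their median log2 fold change was 0.82. Chaf1b, a subunit of the assembly factor CAF-1 that deposits H3 and H4 at replication forks, lay between 27 and 68.8 CPM in the embryos and at 8.87 and 5.96 CPM in the adults (log2 fold change 2.64 ± 0.39, SE, edgeR adjusted p = 1.1e-04). Atrx, which works with Daxx to deposit H3.3, lay between 12.1 and 57.8 CPM in the embryos and at 119 and 126 CPM in the adults (log2 fold change −2.27 ± 0.51, SE, edgeR adjusted p = 0.00202). Its embryo values were highest in Embryos 1 and 4. Of 27 S phase genes, 7 were called higher in the embryo and none in the adult by edgeR, where 11.3% and 14.6% of all genes were. The list had a median of 1.58 and summed to 1828 to 2750 CPM in the embryos and 740 and 584 CPM in the adults. Gins2, a subunit of the replicative helicase, had a log2 fold change of 3.41 ± 0.41 (SE, edgeR adjusted p = 1.7e-05), and Ccne1, the cyclin of S phase entry, had the largest of the list at 3.50 ± 0.40 (SE, edgeR adjusted p = 1.3e-05). Of 6 markers of dividing cells 4 were called higher in the embryo, where 11.3% of all genes were, with a median of 2.67. The exceptions were Mki67 (−0.88) and Top2a (−0.04).

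Markers of other tissue in the samples are given for the histone values to be read beside them. The 5 mesenchyme markers summed to 560 to 2075 CPM in the embryos and 573 and 370 CPM in the adults, led by Col3a1 in the embryo, with 3 called higher in the embryo and 1 in the adult (median log2 fold change 2.42). Endothelial markers summed to 84.3 to 322 CPM in the embryos and 99.3 and 59.5 CPM in the adults, led by Cdh5 in the embryo, with none of 4 called by edgeR (median 1.20). Macrophage markers summed to 93.8 to 243 CPM and 80 and 122 CPM, led by C1qb in the embryo, with none of 4 called by edgeR (median 0.32). Neural markers summed to 182 to 406 CPM and 434 and 423 CPM, led by Nefl in the embryo, with Neurod6 at 0 throughout and 1 of 5 tested, Map2, called higher in the adult (median 0.41). Their part in the histone values was not tested.

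How far the counts reach the members was limited by sequence likeness and by overlapping gene models, since read pairs that map to several places or fall on several models were not counted. Among the 70 genes the median share of 75-base stretches found in no other annotated gene was 56%, and it was 99.3% for H1, 75.4% for H4, 63.1% for H2B, 41% for H3 and 28.5% for H2A. For 32 genes it was below 50%, and 10 of the 20 of these that were tested were called higher in the embryo and none in the adult by edgeR. Of the 8 tested genes above 90%, 3 were called higher in the embryo and none in the adult, and of the 25 between, 6 and 3. Over all tested genes 11.3% were called higher in the embryo and 14.6% in the adult, and of those of up to 1000 bp 30.7% and 7.73%. The genes below 50% were short, with a median longest transcript of 462 bases. A stretch shared with a gene model that overlaps at the same place also counted as not unique, although such pairs may map to 1 place. Hist2h2aa2, Hist2h2bb and Hist2h3b, each with a share of 0%, still held counts. Levels of genes whose pairs went uncounted are lower bounds. Multimapping pairs made up 14.1% to 26.1% of the embryo libraries and 7.16% and 7.52% of the adult ones. In 5 genes, Hist1h2aa, Hist1h2ba, Hist1h2bq, Hist2h2aa1 and Hist2h3c1, no library held a count. Hist2h2aa1 and Hist2h3c1 had no unique stretch at all, and both overlap the gene model Gm20634 on the same strand. A count of 0 therefore says nothing of their level.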

How the data were processed

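The authors trimmed 75 bp read pairs with Trimmomatic 0.39, aligned them to mm10 with STAR 2.7.5b and deposited raw counts of uniquely mapped pairs per gene on Ensembl 96 (GRCm38) models, not normalised. The strand-specific count of the 9 libraries was used here. Genes were fitted with the quasi-likelihood model of edgeR 4.0.16 (R 4.3.3), TMM scaling and stage as the only term, after a filter of a mean count of at least 5, and p-values were adjusted over all 19371 tested genes. Sequence searches and sums used Python 3.11.15 with pandas 2.3.3. Genes named are, in each class, the 3 tested members with the highest level per kb of exon in the embryo and the 2 with the highest in the adult, those with the largest and smallest log2 fold change, the Hist3, Hist4 and testis members, and genes of the lists. Lists covered replication-independent histones, histone mRNA transcription and processing, chaperones, S phase genes, RNAs without a poly(A) tail, and markers of cell types. The members and lists were chosen with earlier results of these data known. Alternatives were the Wald test of DESeq2 1.42.0, its size factors, library size alone, other filters, the unstranded count, a fold change above 2, a transcript length and GC correction (splines, 4 degrees of freedom, from genes averaging at least 50 counts), omitted libraries and a replicate block. Sex was left out because it is not given per sample. A library of 16738863 pairs, the smallest, gives 0.22 CPM for the 3 counts of the floor.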

Additional observations from a re-analysis of the deposited data

Results flagged for a closer look

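In 4 of 34 groups of 7 embryos examined, 1 library lay far from the other 6, by a rule under which chance flags about 1 in 20 groups of normally distributed values, and how it acts on skewed values was not tested. Hist1h2al was at 0.846 CPM in Embryo 4, with the nearest embryo at 0.0321 CPM. Hist1h2ag was at 5.71 CPM in Embryo 1, with the nearest at 2.92 CPM. Hist1h2bc was at 39.8 CPM in Embryo 4, with the nearest at 27.9 CPM. Hist1h3i was at 5.86 CPM in Embryo 1, with the nearest at 2.12 CPM. The cause of these values was not tested.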

How the results depend on the processing

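Of the log2 fold changes of 25 named genes over the alternatives, 451 kept their direction and side of the threshold, 22 were weaker, 11 stronger and 15 reversed, and Hist1h4b gave no value with the unstranded count. The main counts were 19 genes higher in the embryo, 3 in the adult and 26 past the adjusted p alone. With the length and GC correction 12 were higher in the embryo and 8 in the adult. Leaving out each library in turn gave 9 to 22 in the embryo, 3 to 5 in the adult and 13 to 30 past the adjusted p, the fewest without an adult, where the lone adult is assumed to vary as the embryos do, and leaving out Embryos 1 and 4 gave 5 in the adult. The replicate block, on numbers 1 and 2 only, gave 10 in the embryo and 13 past the adjusted p. The same 4 libraries without the block, an alternative added after seeing the data, gave 13 and 16. Same-numbered libraries did not deviate together (correlations 0.0331 and 0.000303), so the numbers pair nothing. Class sums moved by more than the spread between replicates (1 SD) under the length and GC correction only, to −0.90 (H1), 0.05 (H2A), 0.46 (H2B), 0.29 (H3), −0.31 (H4) and 0.03 (all). Reversed were Hist1h1c with library size alone (−0.13) and the correction (−0.84), Hist1h4h with library size alone (−0.12), the correction (−2.00) and without Embryos 1 and 4 (−0.41; −0.05 to 0.39 with single libraries left out), Hist3h2bb-ps with the correction (−0.91), and Hist1h3d, at −0.00, with the unstranded count (0.03), the replicate block (0.34) and those 4 libraries unblocked (0.46; −0.30 to 0.33 with single libraries left out). The cause was not tested.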
